A study of Drosophila melanogaster with 6 samples.

Results

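The elements described here are the LTR retrotransposons that the deposited annotation files under the names Gypsy, Gypsy_DS, GTWIN and the numbered Gypsy1 to Gypsy12 series, measured in RNA that copurified with the Drosophila protein Asterix. Members were every annotated feature of the Gypsy class of LTR elements whose element name begins with Gypsy or GTWIN, whatever the case of the letters. The rule found 2635 genomic copies among 133537 features, and summing the copies gave 18 elements with 32 parts, where a part is the LTR or the internal region. Gypsy1, with 178 copies, held most of the reads and is given apart, which leaves 2457 copies of 17 elements. Gypsy2_DM is kept apart from Gypsy2 because the files name them differently. Gypsy6A and Gypsy12A had reads in LTR copies only, Gypsy9 in internal copies only, and Gypsy_DS is not split.

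An LTR retrotransposon is transcribed from one long terminal repeat to the other, copied into DNA by its own reverse transcriptase and inserted elsewhere in the genome. The LTRs carry the promoter and the signal for the transcript's end, and the internal region encodes the Gag and Pol proteins. Gypsy, and its close relative gtwin, also carry an env gene. In the somatic follicle cells of the ovary Gypsy is held down by piRNAs from the flamenco (flam) locus, a long array of element fragments that lie mostly antisense. These piRNAs guide the nuclear protein Piwi to nascent transcripts, and Asterix (Gtsf1), a small zinc-finger protein that binds Piwi, is required for the silencing that follows.

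All 6 libraries came from OSS (ovarian somatic sheath) cells, a cultured Drosophila line of ovarian somatic origin, in which Asterix was driven from its endogenous promoter and carried a C-terminal tag named GFP-FRT-Precission-V5-3xFLAG-P2A. The libraries were made by eCLIP, in which RNA fragments left after RNase I treatment are recovered with a protein and sequenced. RNA recovered on anti-FLAG M2 beads (IP) was compared with RNA of the lysate (input), with UV crosslinking in 2 IP and 2 input libraries and without it in 1 IP and 1 input library. The labels do not say whether replicates came from separate cultures, so p-values measure the spread between these libraries, which may be technical, and they give no untagged control.

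Libraries held 2619716 to 15992638 reads, the smallest being the non-crosslinked IP. Levels below are RPM of annotated reads (the deposited unit, rescaled to reads that have an annotation), on which 3 counts were worth 0.191 to 1.31 RPM. Reads without annotation made up 1.98 to 5.99% of the other libraries and 12.9% of the non-crosslinked IP, and rRNA 73.2 to 85.8% of annotated reads. Germline marker genes (vas, nos, aub, AGO3, osk and rhi) summed to 3 to 16 exon counts per library. The somatic marker tj had 91 to 1190 exon counts per library, and fs(1)Yb had 7 to 132. Reads that match several copies were shared between them, so the counts are fractional. The files give neither strand nor element length: reads of an element's own transcript and of antisense precursors such as flam cannot be told apart, and read numbers of different elements are not levels per length. Fewer cells carrying an RNA and less of it per cell cannot be told apart either.

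Without Gypsy1, the elements together rose in the crosslinked IP. Their summed level was 1045 and 1046 RPM in the crosslinked inputs and 3746 and 4156 RPM in the crosslinked IPs. The IP mean was 3951 ± 290 RPM (SD, n = 2) against 1045 ± 0.514 RPM (SD, n = 2), a ratio of 3.78, and the ratio of single IP and input pairs ran from 3.58 to 3.98. Without crosslinking the sum was 617 RPM in the input and 1309 RPM in the IP, a ratio of 2.12. With Gypsy1 included, the sum was 8974 and 9281 RPM in the inputs and 9966 and 10926 RPM in the IPs. That ratio was 1.14, and 0.962 when rRNA was left out of the total, so its direction depended on the scale.

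Element by element, 13 of the 18 were higher in the crosslinked IP than in the crosslinked input and 0 were lower, by the quasi-likelihood test of edgeR, adjusted by Benjamini-Hochberg over 9401 items (genes, transposon elements and other RNAs). Over all items tested, 20.3% were called higher and 17.2% lower. At an unadjusted p under 0.05, 15 of the 18 passed, as did 4306 of all 9401 items. DESeq2 also called 13 higher and 0 lower. The median log2 ratio of the elements was 1.43 and that of all items was -0.01. Both IPs lay above both inputs in RPM for 15 of the 18, against 35.5% of all items. One of the 13, Gypsy_DS, reached the minimum of 10 counts only through the IPs.

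**Figure D1:**
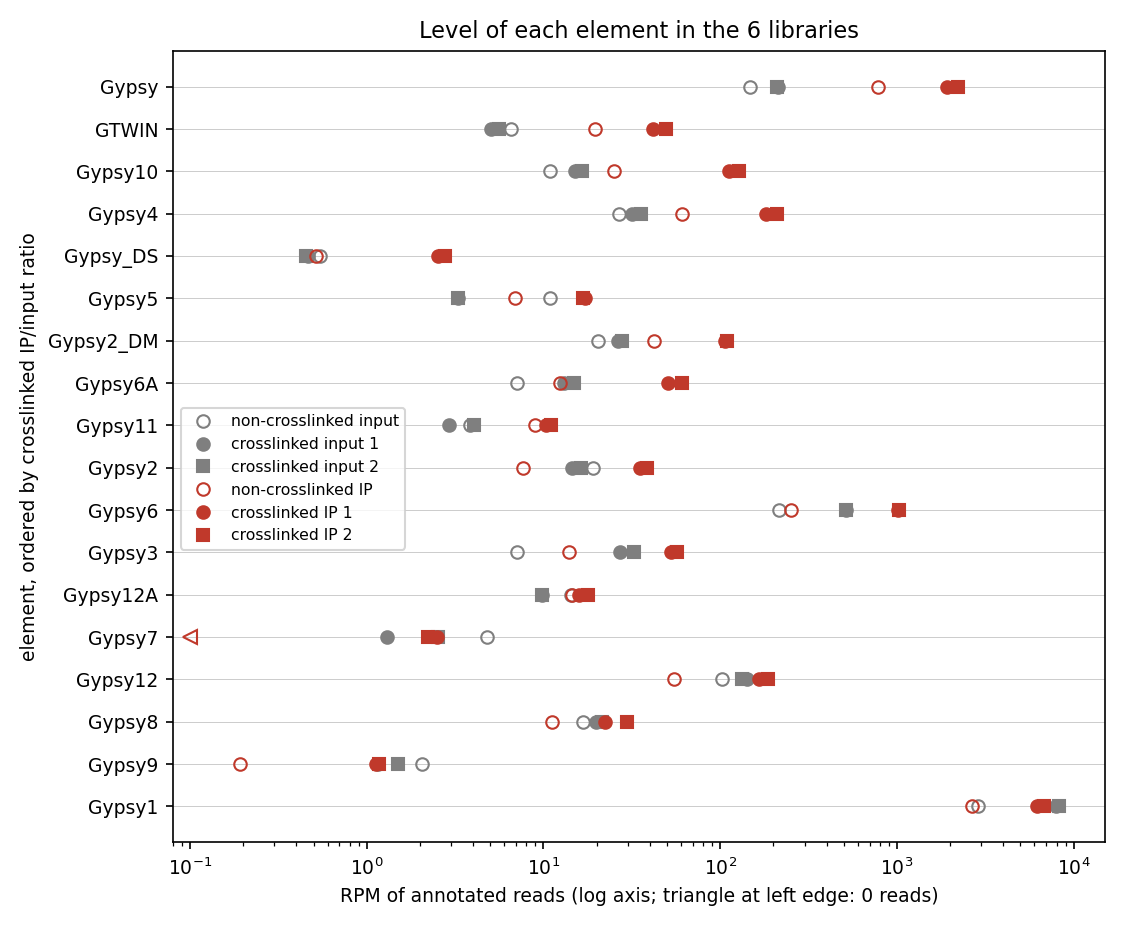
RPM of annotated reads (log axis) of the 18 elements in each of the 6 libraries, ordered by the fitted crosslinked IP/input ratio, with grey symbols for inputs, red for IPs, filled for crosslinked and open for non-crosslinked. Gypsy is at 208 to 213 RPM in the crosslinked inputs and 1915 to 2209 RPM in the IPs, whereas for Gypsy1 the IPs lie left of the inputs; Gypsy7 had 0 reads in the non-crosslinked IP.

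Gypsy, the element that gives the class its name, had the highest ratio of the 18. It was at 213 and 208 RPM in the crosslinked inputs, 1915 and 2209 RPM in the crosslinked IPs, 148 RPM in input and 780 RPM in IP without crosslinking. All 3 IPs were above all 3 inputs, and the crosslinked IPs were the highest. The fitted log2 ratio was 3.27 ± 0.18 (SE; edgeR adjusted p = 1.45e-10), or 9.63-fold. Gypsy held 2.25 to 2.38% of the member reads in the crosslinked inputs and 19.2 to 20.2% in the crosslinked IPs.

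GTWIN, the relative of Gypsy, was at 5.04 and 5.59 RPM in the crosslinked inputs, 41.8 and 49.2 RPM in the crosslinked IPs, 6.53 RPM in input and 19.7 RPM in IP without crosslinking. The 3 IPs again lay above the 3 inputs. The log2 ratio was 3.08 ± 0.15 (SE; edgeR adjusted p = 4.95e-11).

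Gypsy10 was at 15.1 and 16.4 RPM in the crosslinked inputs, 112 and 127 RPM in the crosslinked IPs, 10.9 RPM in input and 25.0 RPM in IP without crosslinking. Gypsy4 was at 31.7 and 35.8 RPM in the crosslinked inputs, 182 and 209 RPM in the crosslinked IPs, 26.8 RPM in input and 61.1 RPM in IP without crosslinking. For both, the non-crosslinked IP was above the inputs and well under the crosslinked IPs. The log2 ratios were 2.90 ± 0.16 for Gypsy10 and 2.52 ± 0.16 for Gypsy4 (SE; edgeR adjusted p = 9.76e-11 and 1.29e-09).

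Gypsy5 and Gypsy2 rose in the crosslinked pairs and were lower in the non-crosslinked IP than in its input. Gypsy5 was at 3.29 and 3.30 RPM in the crosslinked inputs, 17.1 and 16.6 RPM in the crosslinked IPs, 10.8 RPM in input and 6.86 RPM in IP without crosslinking. Its non-crosslinked input was thus above the crosslinked inputs, and its non-crosslinked IP lay between the crosslinked inputs and IPs. Gypsy2 was at 14.5 and 16.3 RPM in the crosslinked inputs, 35.1 and 38.6 RPM in the crosslinked IPs, 19.0 RPM in input and 7.64 RPM in IP without crosslinking, which was the lowest of the 6. The crosslinked log2 ratios were 2.33 ± 0.16 for Gypsy5 and 1.25 ± 0.14 for Gypsy2 (SE; edgeR adjusted p = 4.13e-09 and 1.10e-06).

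Gypsy6, after Gypsy1 the element with most reads in the crosslinked inputs, changed less. It was at 518 and 513 RPM in the crosslinked inputs, 1013 and 1027 RPM in the crosslinked IPs, 216 RPM in input and 250 RPM in IP without crosslinking. Crosslinked and non-crosslinked libraries stood further apart in the inputs than the non-crosslinked IP stood from its own input. The log2 ratio was 0.97 ± 0.16 (SE; edgeR adjusted p = 1.35e-04).

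The 6 other called elements spanned log2 ratios of 0.76 to 2.51. Gypsy2_DM rose from 26.5 and 27.7 RPM in the crosslinked inputs to 106 and 110 RPM in the IPs (1.98 ± 0.14, SE), and Gypsy6A from 13.1 and 14.9 RPM to 51.0 and 60.7 RPM (1.98 ± 0.15, SE). Gypsy11 rose from 2.93 and 4.03 RPM to 10.4 and 11.0 RPM (1.62 ± 0.19, SE), and Gypsy3 from 27.2 and 32.6 RPM to 52.4 and 57.2 RPM (0.86 ± 0.14, SE). Gypsy12A rose from 9.84 and 9.78 RPM to 15.9 and 17.8 RPM (0.76 ± 0.14, SE). Gypsy_DS was the rarest, at 5 to 7 counts in the crosslinked inputs and 21 to 24 counts in the IPs (2.51 ± 0.39, SE). The groups did not overlap in any of these elements, and all 13 calls held when any 1 crosslinked library was left out.

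Of the 5 elements that were not called, 4 had few reads or small differences. Gypsy12 was at 142 and 133 RPM in the crosslinked inputs and 166 and 187 RPM in the IPs, without overlap, and its log2 ratio of 0.34 ± 0.15 (SE) missed the threshold (edgeR adjusted p = 0.0899). Gypsy8 was at 19.8 and 21.3 RPM in the inputs and 22.3 and 29.7 RPM in the IPs, with a log2 ratio of 0.31 ± 0.15 (SE; adjusted p from edgeR = 0.101). Gypsy8 was called higher in 3 alternative settings: with a minimum of 100 counts (adjusted p = 0.0405), without crosslinked input replicate 2 (0.0440) and without crosslinked IP replicate 1 (0.0427). Gypsy7 had 20.5 and 28.4 counts in the inputs and 23.4 and 17.1 in the IPs, and Gypsy9 had 18.0 and 16.8 counts in the inputs and 10.7 and 9.07 in the IPs. In the last 2 the groups overlapped in RPM, and these depths could not show a difference: 95% intervals of the log2 ratio, taken from its SE, ran from -0.31 to 1.03 for Gypsy7 and from -0.94 to 0.59 for Gypsy9.

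Gypsy1 is the fifth. It was at 7929 and 8235 RPM in the crosslinked inputs, 6220 and 6770 RPM in the crosslinked IPs, 2865 RPM in input and 2658 RPM in IP without crosslinking. Both crosslinked IPs lay below both inputs, which in the same direction held for 32.9% of all items. The log2 ratio of -0.34 ± 0.17 (SE) did not pass the test (edgeR adjusted p = 0.135). Its adjusted p ranged from 0.00106 to 0.451 over 13 alternative settings, of which 2 called it lower. One of these was the fit with no minimum count, where the log2 ratio was -0.53 (adjusted p = 0.00106). Gypsy1 held 88.4 and 88.7% of the member reads in the crosslinked inputs, 62.4 and 62.0% in the crosslinked IPs, and without crosslinking 82.3% in input and 67.0% in IP.

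The LTR and internal parts of an element did not always move by the same amount. As separate items, 25 of the 31 parts with enough counts were higher in the crosslinked IP and 0 were lower (edgeR, Benjamini-Hochberg adjustment over 9445 items, of which 19.9% were higher and 18.3% lower). At an unadjusted p under 0.05, 26 parts passed, as did 4362 of all 9445 items. DESeq2 called 21 parts higher and 0 lower, and 1108 and 749 of all items. A part with few input reads reaches the minimum only if its IP reads are high: 5 of the 25, among them the LTRs of GTWIN and Gypsy3 and Gypsy_DS, had an input mean under 10 counts. Of the 26 parts with an input mean of at least 10 counts, 20 were higher, and the share among all items with such an input mean was not computed. The LTR of Gypsy7, with at most 2 counts per library, was not tested. Calls for 4 parts rested on single libraries or on the tool. The Gypsy1 LTR was lost without crosslinked IP replicate 2 (edgeR adjusted p = 0.124), the Gypsy11 LTR without crosslinked IP replicate 1 (0.161), and the Gypsy10 LTR and the Gypsy8 internal region without crosslinked input replicate 1 (0.0760 and 0.0708) or crosslinked IP replicate 2 (0.0733 and 0.145). DESeq2 called none of these 4, with adjusted p from 0.0872 to 0.189. Over all alternatives their adjusted p ran from 0.00108 to 0.189.

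The Gypsy LTR was at 22.5 and 22.7 RPM in the crosslinked inputs, 598 and 616 RPM in the crosslinked IPs, 12.9 RPM in input and 258 RPM in IP without crosslinking. The internal region of Gypsy was at 191 and 186 RPM in the crosslinked inputs, 1316 and 1593 RPM in the crosslinked IPs, 135 RPM in input and 521 RPM in IP without crosslinking. Both parts rose, the LTR by more. The fitted log2 ratios were 4.70 ± 0.19 for the LTR and 2.90 ± 0.18 for the internal region (SE; edgeR adjusted p = 1.81e-12 and 5.66e-10).

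GTWIN showed the same order, with an LTR log2 ratio of 5.06 ± 0.27 and an internal one of 2.58 ± 0.15 (SE; edgeR adjusted p = 5.41e-11 and 2.67e-10). Its LTR was at 0.411 and 0.580 RPM in the crosslinked inputs and 13.5 and 18.1 RPM in the crosslinked IPs, and without crosslinking it had 0 counts in input and 15 in IP. The internal region was at 4.63 and 5.01 RPM in the crosslinked inputs and 28.4 and 31.1 RPM in the IPs. The Gypsy3 LTR was at 0.433 and 0.271 RPM in the crosslinked inputs and 4.46 and 3.97 RPM in the IPs, a log2 ratio of 3.44 ± 0.36 (SE), while its internal region rose by 0.73 ± 0.14 (SE) on the log2 scale.

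Gypsy10 and Gypsy6 ran the other way. The Gypsy10 internal region was at 13.8 and 14.8 RPM in the crosslinked inputs and 109 and 124 RPM in the IPs, and its LTR at 1.34 and 1.61 RPM in the inputs and 2.77 and 3.35 RPM in the IPs. Their log2 ratios were 2.98 ± 0.16 and 1.02 ± 0.29 (SE). The Gypsy6 internal region was at 36.5 and 42.2 RPM in the crosslinked inputs and 137 and 150 RPM in the IPs, and its LTR, which held most Gypsy6 reads, at 481 and 471 RPM in the inputs and 877 and 878 RPM in the IPs. Their log2 ratios were 1.82 ± 0.16 and 0.84 ± 0.17 (SE).

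The difference between parts was tested directly with limma on log2 of internal over LTR RPM, with 1 RPM added to each, over 52 transposon elements that had both parts. Of the 13 members among them, 5 had a lower internal over LTR ratio in the IP (the LTR gained more) and 2 a higher one. Over all 52 elements, 38.5% were lower and 23.1% higher. The change was -1.75 ± 0.12 for Gypsy (SE; limma adjusted p = 0.00119), -1.08 ± 0.13 for GTWIN (0.00348), -0.84 ± 0.10 for Gypsy1 (0.00318), -1.19 ± 0.20 for Gypsy3 (0.00952) and -0.38 ± 0.10 for Gypsy12 (0.0315). It was 2.22 ± 0.09 for Gypsy10 (0.000522) and 0.96 ± 0.13 for Gypsy6 (0.00452). The Gypsy3 call was lost without crosslinked IP replicate 1 or 2 (0.0755 and 0.0526, in a range over alternatives of 0.00388 to 0.154). The Gypsy12 call was lost without crosslinked input replicate 1 or 2 or crosslinked IP replicate 1 (0.122, 0.162 and 0.0744, in a range of 0.00172 to 0.162). The added RPM matters for parts with few reads: with 10 RPM added, the GTWIN change became 0.13 and the Gypsy3 change 0.16. The directions for Gypsy, Gypsy1, Gypsy10, Gypsy6 and Gypsy12 held with 0.1 and 10 RPM added.

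**Figure D2:**
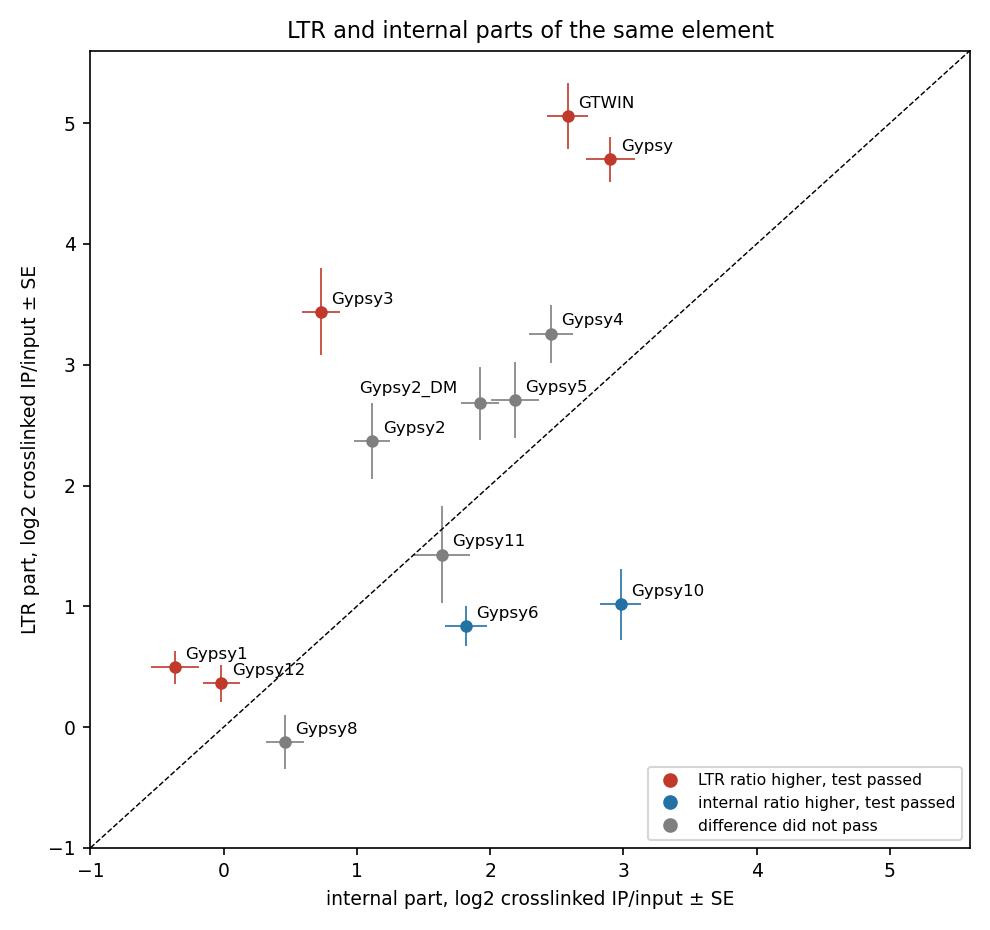
Fitted log2 crosslinked IP/input ratio of the LTR part against that of the internal part, with SE bars, for the 13 elements with both parts tested; the dashed line marks equal ratios. GTWIN, Gypsy and Gypsy3 lie far above the line and Gypsy10 and Gypsy6 below it; colours give the limma test of the difference with 1 RPM added. The LTRs of GTWIN and Gypsy3 had an input mean under 10 counts.

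Crosslinking asked how far each element's ratio exceeded the ratio seen without UV. The test compared the crosslinked and non-crosslinked log2 IP/input ratios in 1 edgeR model of the 6 libraries. In it the single non-crosslinked libraries were assumed to vary like the crosslinked ones. TMM factors were 0.857 for the non-crosslinked input, 0.599 for its IP and 1.15 to 1.21 for the crosslinked libraries. Non-crosslinked ratios given below are of RPM without this scaling. On the scale of the model each of them would be higher, so those near 1 have no settled direction. Of the 18 elements, 4 had a higher ratio with crosslinking and 0 a lower one, against 6.53% and 4.99% of 8224 items. At an unadjusted p under 0.05, 9 elements passed, as did 2134 of all 8224 items. Of the 9, 8 had a higher ratio and 1, Gypsy1, a lower one. In 20 simulations of 4-fold differences this model recovered 22.2 to 40.9% of the changed items (median 33.4%). These were drawn at random from the 8224 items, of which 1962 had a mean of at least 100 counts. The share recovered is thus not that of elements with many reads. An element that was not called may still differ, to an extent that its SE shows.

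Gypsy5 differed by 2.46 ± 0.40 and Gypsy2 by 2.10 ± 0.37 on the log2 scale (SE; edgeR adjusted p = 0.000582 and 0.00147), and both calls held when any 1 crosslinked library was left out. For Gypsy2 the non-crosslinked ratio was 0.389 (17 against 77 counts, exact 95% interval 0.216 to 0.664), below 1. For Gypsy5 it was 0.641 (16 against 44 counts, 0.338 to 1.16). Gypsy10 differed by 1.20 ± 0.35 (SE; adjusted p = 0.0365), a call that was lost without crosslinked input replicate 1 and without crosslinked IP replicate 1 or 2 (adjusted p = 0.0507, 0.0603 and 0.109, in a range over alternatives of 0.00531 to 0.109). Gypsy7 was also called (adjusted p = 0.0330, and 0.0677 or 0.0737 without crosslinked IP replicate 1 or 2, in a range of 0.000968 to 0.0737). It had 0 counts in the non-crosslinked IP and 19.2 in its input, which gives an exact 95% upper limit of 0.378 for the non-crosslinked ratio. The crosslinked ratio was 1.22, and 0.872 to 1.91 over single IP and input pairs.

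Gypsy1 differed the other way, by -0.74 ± 0.27 on the log2 scale (SE; edgeR adjusted p = 0.0938). It was called lower with no minimum count (-0.87, adjusted p = 0.0107) and with a minimum of 100 counts (-0.84, adjusted p = 0.00971), fits in which the median of all items was 0.79 and -0.16, against 0.03. Gypsy11 differed by -0.03 ± 0.55 (SE; edgeR adjusted p = 0.995), with a 95% interval from the SE of -1.10 to 1.05.

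For Gypsy itself the difference was 0.36 ± 0.28 (SE; edgeR adjusted p = 0.475), with a 95% interval from the SE of -0.20 to 0.92 on the log2 scale. Its non-crosslinked ratio was 5.26 (1780 against 596 counts, 4.80 to 5.79), the highest of the 18 elements without UV. The Gypsy LTR had 590 counts in IP and 52 in input without UV, with an interval of 15.0 to 27.1 for its ratio, and the internal ratio was 3.86 (3.48 to 4.28). The GTWIN LTR had 15 counts in the non-crosslinked IP and 0 in its input, which gives an exact 95% lower limit of 6.32 for the ratio. The greater gain of the Gypsy LTR was thus present in the pair without UV as well.

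Among the rest, the non-crosslinked ratio was 3.05 for GTWIN (1.84 to 5.15), 2.28 for Gypsy4 (1.76 to 2.96), 2.28 for Gypsy10 (1.51 to 3.46), 2.20 for Gypsy11 (1.08 to 4.55), 2.11 for Gypsy2_DM (1.56 to 2.87), 2.01 for Gypsy3 (1.17 to 3.47) and 1.76 for Gypsy6A (1.01 to 3.09), each with an exact 95% interval above 1. It was 1.16 for Gypsy6 (1.04 to 1.29) and 0.928 for Gypsy1 (0.899 to 0.957), and 0.533 for Gypsy12 (0.433 to 0.653). These intervals cover counting error of 1 pair of libraries only, on RPM without TMM scaling. Parts as separate items were fitted after the data were seen. The ratio was higher with crosslinking in 5 internal regions, those of Gypsy10, Gypsy12, Gypsy2, Gypsy5 and Gypsy7, and in 0 LTRs (6.57% of items higher). The LTRs of GTWIN, Gypsy10, Gypsy11, Gypsy2, Gypsy2_DM, Gypsy3 and Gypsy5 had at most 3 counts in a non-crosslinked library. These counts of calls therefore cannot set LTRs apart from internal regions. The Gypsy10 LTR differed by 1.29 ± 1.45 and its internal region by 1.22 ± 0.36 (SE). The Gypsy12 internal region differed by 1.35 ± 0.35 (SE; edgeR adjusted p = 0.0194), and its LTR by 0.46 ± 0.29 (SE).

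**Figure D3:**
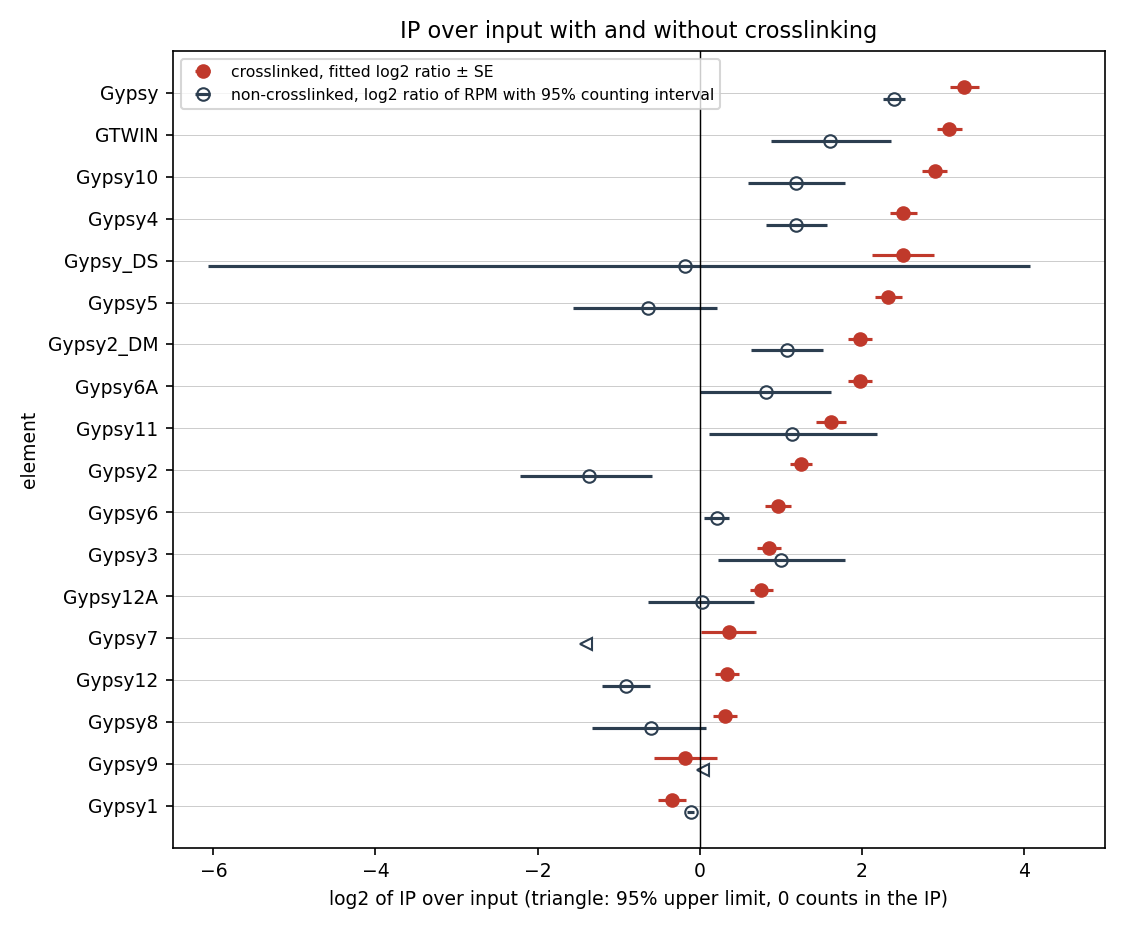
Log2 of IP over input for each element: filled points give the crosslinked fitted ratio ± SE, open points the ratio of the single non-crosslinked pair with its exact 95% counting interval, triangles the 95% upper limit where the IP had 0 counts. The crosslinked point lies right of the non-crosslinked one for all elements but Gypsy1, Gypsy3 and Gypsy9, whose triangle is only a limit. The distance is largest for Gypsy5, Gypsy2, Gypsy_DS and Gypsy7, and the Gypsy_DS interval rests on 1 and 2 counts. Crosslinked fits are TMM-scaled and non-crosslinked RPM ratios are not. The distance between points is therefore not the tested difference, which for Gypsy11 was -0.03.

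The inputs themselves differed with crosslinking. Gypsy1 was at 2865 RPM in the non-crosslinked input against 7929 and 8235 RPM in the crosslinked ones, Gypsy6 at 216 against 518 and 513 RPM, and Gypsy3 at 7.05 against 27.2 and 32.6 RPM. Gypsy5 and Gypsy7 went the other way, at 10.8 against 3.29 and 3.30 RPM and at 4.77 against 1.31 and 2.53 RPM. The contrast of inputs in the 6-library edgeR model, a test added after the data were seen, called 3 of the 18 elements higher in the crosslinked inputs (Gypsy1, Gypsy3 and Gypsy6) and 4 lower (Gypsy5, Gypsy7, Gypsy2 and Gypsy12A), against 5.87% and 9.14% of 8224 items. The log2 difference was 1.04 ± 0.20 for Gypsy1 (SE; edgeR adjusted p = 0.00116) and -2.18 ± 0.27 for Gypsy5 (SE; adjusted p from edgeR = 1.10e-05). The single non-crosslinked input was assumed to vary like the other libraries, and the input levels enter every ratio of ratios above. Of the 4 elements called for that ratio of ratios, Gypsy5, Gypsy2 and Gypsy7 were thus lower in the crosslinked inputs, and Gypsy10 was not called (0.07 ± 0.26, SE; edgeR adjusted p = 0.923).

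Single copies were examined next, as the annotation numbers them. Few copies had enough reads: 225 of the 2635 reached a mean of 10 counts in the crosslinked libraries, and these held 97.7% of member reads. Of the 225, 172 were higher in the IP and 1 was lower (edgeR, Benjamini-Hochberg adjustment over 17781 features, of which 22.2% were higher and 19.7% lower). A copy with few input reads passes the minimum only if its IP reads are high, so the count describes the tested copies and not all copies. An input mean under 10 counts was found in 77 of the 172, and of the 148 copies with an input mean of at least 10, 95 were higher. The share higher among all features with such an input mean was not computed, so the 95 have no background to be read against. Copies of an element share reads and are not independent, and 222 of the 225 had a fractional count in at least 1 library.

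**Figure D4:**
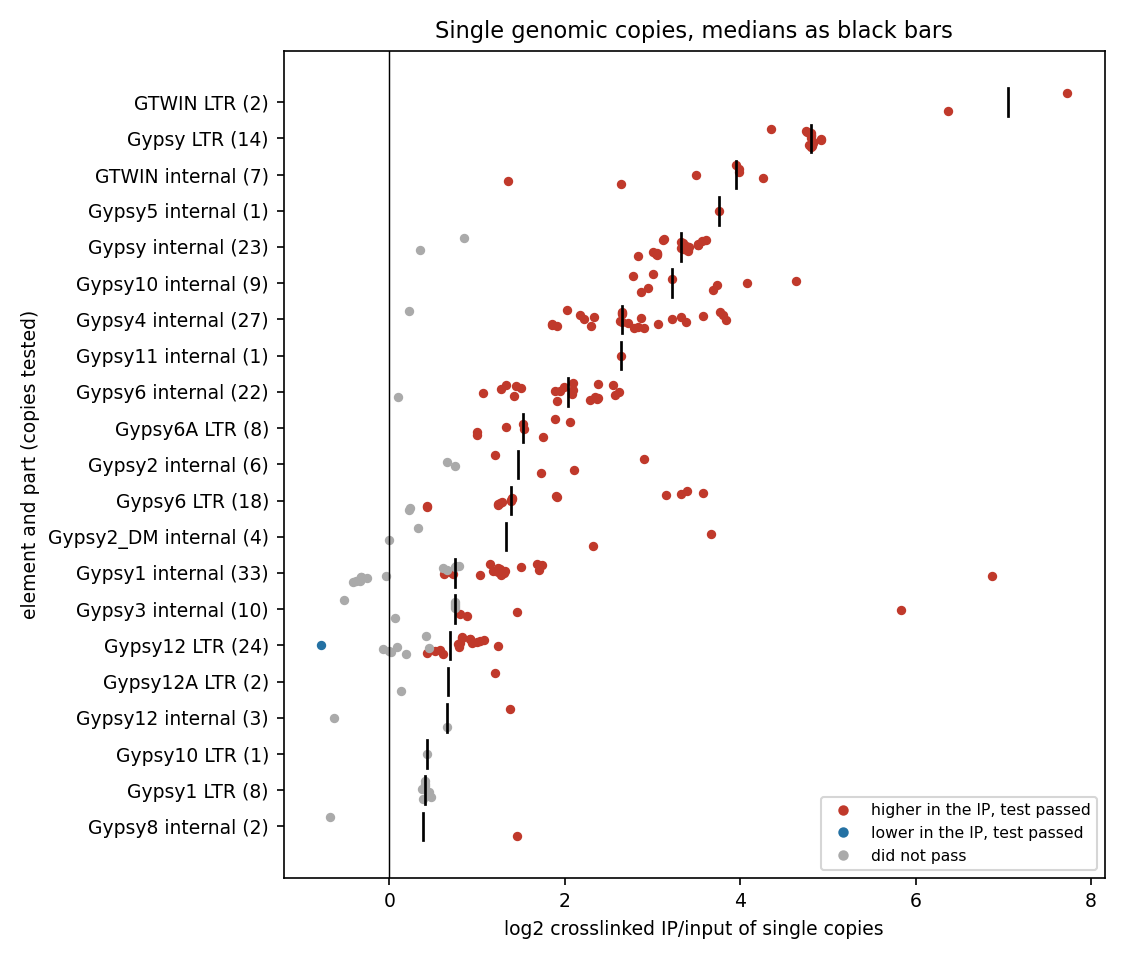
Fitted log2 crosslinked IP/input ratio of the 225 tested copies by element and part, with the number of copies in brackets (copies of an element share reads), red for higher, blue for lower and grey for not called, black bars at medians. The 14 Gypsy LTR copies form a tight group between 4.35 and 4.92, while Gypsy6 LTR and Gypsy1 internal copies spread widely.

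Gypsy reads came from few copies. For the LTR, 3 copies held 78.5% of reads, and their log2 ratios were close to each other, at 4.80, 4.82 and 4.79 for Gypsy_LTR_dup44, Gypsy_LTR_dup80 and Gypsy_LTR_dup79. Those 3 summed to 17.0 and 17.2 RPM in the crosslinked inputs and 467 and 486 RPM in the IPs, and the other 107 LTR copies to 5.57 and 5.45 RPM in the inputs and 132 and 129 RPM in the IPs. The ratio was 27.9 for the first set and 23.7 for the second. Reads that match several LTR copies were divided among them, and the 3 copies each hold 12.3 counts in the non-crosslinked input, so close ratios cannot show which copies gained. For the internal region, 6 copies held 90% of reads. The copy with most reads, Gypsy_I-int_dup117, had 34.1% of them and a log2 ratio of 2.83 ± 0.16 (SE).

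Gypsy1 split by read number. The 11 internal copies with most reads were at 7858 and 8158 RPM in the crosslinked inputs and 6072 and 6610 RPM in the IPs, a ratio of 0.792. The other 128 copies, tested or not, were at 45.5 and 51.1 RPM in the inputs and 115 and 119 RPM in the IPs, a ratio of 2.42. The first set was lower in both IPs and the second higher in both. This split was chosen after the values were seen and has no test. Of the 22 tested copies in the second set, 17 were called higher, and 0 of the first 11 were called in either direction. The minimum count decided the latter. With a minimum of 100 counts 10 of the 11 were called lower, at log2 ratios of -0.58 to -0.42 (edgeR adjusted p = 0.00993 to 0.0465). With no minimum the same 10 were called lower (edgeR adjusted p = 0.000214 to 0.0132). In these 2 fits 822 of 2237 and 5175 of 104450 features were called lower.

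One copy of the second set stood apart. Gypsy1-I_DM_dup76 had 1 count in the non-crosslinked input, 0.500 and 2.46 counts in the crosslinked inputs, 107 and 64.9 counts in the crosslinked IPs, and 217 counts, all whole, in the non-crosslinked IP. In RPM the non-crosslinked IP, at 95.1, was the highest of the 6 libraries, above 11.4 and 8.36 in the crosslinked IPs. The crosslinked IPs were at least 43.0-fold above the inputs, with each input library taken at 3 counts. Without this copy, the other 127 had a ratio of 2.22 with crosslinking and 1.41 without, and with it the non-crosslinked ratio was 6.03.

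Gypsy6 LTR copies also differed by read number. The copies with most reads, Gypsy6_LTR_dup24 and Gypsy6_LTR_dup23, had log2 ratios of 0.23 ± 0.14 and 0.23 ± 0.14 (SE; edgeR adjusted p = 0.218 and 0.209). Copies Gypsy6_LTR_dup30 and Gypsy6_LTR_dup31 were at 0.43 and 0.43, and the tested copies with fewest reads reached 3.58. Summed, the 4 named copies were at 276 and 272 RPM in the crosslinked inputs and 344 and 338 RPM in the IPs, a ratio of 1.24. The other 29 LTR copies were at 202 ± 4.92 RPM in the inputs and 536 ± 4.90 RPM in the IPs (SD, n = 2 each), a ratio of 2.66. The element's ratio therefore averages sets with different ratios, as the deposited counts divide shared reads between copies, and the split was again made after the values were seen.

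By the fitted log2 ratio the 5 leading copies were GTWIN_LTR_dup5, Gypsy1-I_DM_dup76, GTWIN_LTR_dup4, Gypsy3_I-int_dup11 and Gypsy_LTR_dup88. All but Gypsy_LTR_dup88 had at most 2.46 counts in each crosslinked input, so these 4 have no order among themselves or against other copies and only bounds can be given. The IPs were at least 10.8-fold above the inputs for GTWIN_LTR_dup5 and at least 21.0-fold for Gypsy3_I-int_dup11. GTWIN_LTR_dup4 had 0.308 and 1.14 counts in the inputs and 31.4 and 36.8 in the IPs. Gypsy3_I-int_dup11 went from 2.16 and 0.179 counts to 42.9 and 39.5, while the Gypsy3 internal copy with most reads, Gypsy3_I-int_dup40, had a log2 ratio of 0.06 ± 0.16 (SE; adjusted p from edgeR = 0.795). Gypsy_LTR_dup88 went from 0.510 and 0.527 RPM to 16.7 and 15.3 RPM, a log2 ratio of 4.92 ± 0.22 (SE). It had 8.00 and 5.91 counts in the crosslinked inputs, the same as Gypsy_LTR_dup87, and passed the minimum only through its IPs. Its place among the Gypsy LTR copies is thus not settled. Both IPs lay above both inputs in 200 of the 225 tested copies. Such shares over all features were not computed, copies share reads, and the minimum count favours copies with high IP reads. This count and the next therefore describe the tested copies and are no result about the members. Both IPs lay below both inputs in 15, 10 of them Gypsy1 internal copies, and 1 of the 15 passed the test. This was Gypsy12_LTR_dup122, from 3.28 and 3.22 RPM in the crosslinked inputs to 2.11 and 1.51 RPM in the IPs (-0.78 ± 0.23, SE; edgeR adjusted p = 0.0246). This call was lost without crosslinked IP replicate 2, and DESeq2 called 0 copies lower.

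**Figure D5:**
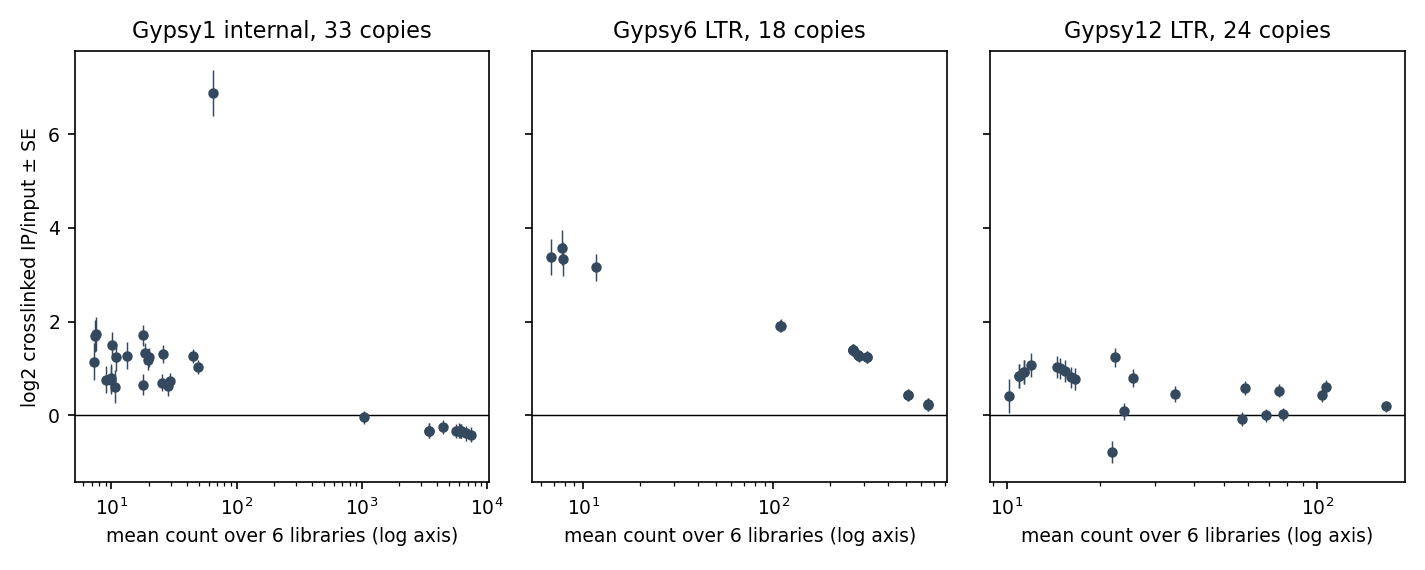
Log2 crosslinked IP/input ratio ± SE of single tested copies against their mean count over the 6 libraries (log axis) for the Gypsy1 internal region, the Gypsy6 LTR and the Gypsy12 LTR. The copies with most reads have the lowest ratios in the first 2 panels; the minimum count removes copies at the left that have few IP reads.

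Other elements of the class and the pathway genes set these ratios in context. Of the 6 tested elements named MDG1, DM412, BLOOD or Stalker, 6 were higher, with a median log2 ratio of 3.99 (2.65 to 4.58). The 4 elements DM297, DM176, ROVER and ZAM were also all higher, with a median of 3.45 (3.00 to 4.68). The 18 members, at 13 higher and a median of 1.43, and Gypsy itself, at 3.27, can be read beside these. Of the remaining LTR elements of the annotation, outside the members and both of these groups, 22 of 42 tested were higher and 8 lower, with a median of 0.62. Over all items tested, 20.3% were higher and 17.2% lower. Copia, the other LTR element with many reads, fell in the IP, from 10239 and 9604 RPM in the crosslinked inputs to 4442 and 4215 RPM in the IPs (-1.22 ± 0.17, SE; edgeR adjusted p = 2.56e-05). Gypsy1 and Copia thus both had IP levels below input in both pairs, and Copia alone passed the test.

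The flam transcript, exons and introns together, was at 575 and 531 RPM in the crosslinked inputs, 3142 and 3435 RPM in the crosslinked IPs, 403 RPM in input and 1424 RPM in IP without crosslinking. The flam log2 ratio of 2.55 ± 0.18 (SE; adjusted p from edgeR = 2.85e-09) lies among those of the higher members. How far reads assigned to Gypsy elements come from flam was not tested, since the files give no positions. Of a list of 20 piRNA pathway genes, 18 had enough exon counts, 0 were higher and 8 lower, with a median of -0.50. Over all items, 20.3% were higher and 17.2% lower. Exons of piwi, for example, went from 81.6 and 107 RPM in the crosslinked inputs to 58.2 and 63.0 RPM in the IPs (-0.66 ± 0.16, SE; edgeR adjusted p = 0.00335). Without crosslinking they were at 420 RPM in input and 47.1 RPM in IP. Their log2 IP/input ratio was 1.99 higher with crosslinking than without.

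The authors' deposited table of a ratio per feature, whose formula is not stated, lists 699 member copies with a median of 3.98. In the same authors' deposited table the median was 3.56 over 3039 LTR copies and 1.36 over all 39941 features. The median there was 29.9 over 16 Gypsy LTR copies, 9.45 over 50 Gypsy internal copies, 2.89 over 23 Gypsy6 LTR copies and 2.62 over 78 Gypsy1 internal copies, in the authors' deposited table. The highest member value in the authors' deposited table was 213, for Gypsy3_I-int_dup11, followed by 198 for Gypsy1-I_DM_dup76.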

How the data were processed

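The authors deposited, per library and annotated feature, an estimated count and an RPM value, and a ratio per feature in a further table of unstated formula. The deposited RPM equals the estimated count over all reads of the library; RPM here were recomputed over annotated reads. Per the submitters' processing notes, bcl2fastq 2.19, STAR 2.5.2b and bedtools 2.29.0 were used, with builds dm6 and mm10 named without roles. Strand, duplicate removal and annotation release are not given in the sources used here. Unannotated reads were left out. Counts were summed per element or part, rounded, and tested with edgeR 4.0.16 (quasi-likelihood, TMM, mean of at least 10 counts in the libraries fitted, threshold 0.05 after Benjamini-Hochberg adjustment), limma 3.58.1 and, as an alternative, DESeq2 1.42.0, in R 4.3.3; figures used matplotlib 3.10.9. Intervals are 95%. The exact ones of non-crosslinked ratios, like the floor of 3 counts, cover counting error only. Those taken from an SE include the spread between libraries as fitted by edgeR. An exact permutation of 2 against 2 libraries cannot go below p = 0.333 and was not used. Replicates differed beyond sampling noise (chi-square per degree of freedom 7.36 for inputs and 5.54 for IPs).

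Named were all elements, per part the copy with most reads where described, and the 5 largest copy increases and decreases past the threshold moving alike in all 4 pairs; only 1 decrease passed. Copies in the splits, Gypsy6_LTR_dup23, Gypsy6_LTR_dup30, Gypsy6_LTR_dup31, Gypsy_LTR_dup79 and Gypsy_LTR_dup80 were named after their values were seen. The members and all lists were chosen with earlier results of these data known. Tests were checked on simulated data with 4-fold changes under 20 random seeds, since the shares moved with the seed. The element test recovered 89.7 to 97.3% with 3 to 14 false calls among 9401 items, the part test 91.4 to 98.4% with 2 to 14 among 9445, the copy test 84.5 to 94.5% with 0 to 12 among 17781, the test of the crosslinking difference 22.2 to 40.9% with 0 to 9 among 8224, and the internal over LTR test 84.6 to 100% with 0 to 2 among 51 to 56. The other processing settings tried are named where the dependence on processing is given. No sequences or coordinates are printed, since the files hold none.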

Additional observations from a re-analysis of the deposited data

Results flagged for a closer look

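In 4 elements the log2 IP/input ratio differed between crosslinked and non-crosslinked libraries by the edgeR test of that difference: Gypsy5 by 2.46 (adjusted p = 0.000582), Gypsy2 by 2.10 (0.00147), Gypsy10 by 1.20 (0.0365) and Gypsy7 by a fitted 9.07 (0.0330). The Gypsy7 value depends on the prior count, because its non-crosslinked IP had 0 counts, and is no bound. In 3 further elements every crosslinked pair was higher in the IP while the single non-crosslinked pair was lower. The non-crosslinked ratio was 0.535 for Gypsy12, 0.669 for Gypsy8 and 0.946 for Gypsy_DS. This is the ratio of RPM without TMM scaling, and on the scale of the model it would be higher for each element. For these 3 the test of the difference did not pass (adjusted p = 0.118 for Gypsy12, 0.633 for Gypsy8 and 0.455 for Gypsy_DS), and the Gypsy_DS ratio rests on 1 and 2 counts.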

How the results depend on the processing

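Ratios of all named elements and parts were recomputed with DESeq2 size factors, library size only, no minimum or a minimum of 100 counts, DESeq2, limma on log2 RPM, a replicate block, no rRNA, and each crosslinked library left out. For elements, 223 of 229 such values stayed on their side of the threshold and 0 were reversed; Gypsy1 was called lower with no minimum (13 higher, 1 lower) and with the replicate block (14 higher, 1 lower; Gypsy1 at -0.34, adjusted p = 0.00550), where Gypsy12 was called higher (0.34, adjusted p = 0.0221), and the calls without single libraries ran from 13 to 14 higher. Over all items DESeq2 called 1091 higher and 743 lower, where edgeR called 1905 and 1620. With a minimum of 100, 15 of 17 tested parts were higher, against 839 of 2463 items. With no minimum, 23 of 32 parts were higher and 1 lower, against 1984 and 2129 of 28396 items. The block gave 26 parts higher and 1 lower, against 2006 and 1875 of 9445 items. Without single libraries the median log2 ratio of the parts ran from 1.68 to 1.95. Of 1690 copies tested with no minimum, 303 were higher and 12 lower, against 4759 and 5175 of 104450 features. Of 47 copies tested with a minimum of 100, 28 were higher and 10 lower, against 844 and 822 of 2237 features. DESeq2 called 0 copies lower, against 1299 of 17781 features. Limma called 2 lower at 1 or 0.1 RPM added, against 3874 and 3697 features. The block gave 172 copies higher and 3 lower, against 4077 and 3762 of 17781 features. Without single libraries the median log2 ratio of the tested copies ran from 1.40 to 1.97. Among the lower copies, 10 with no minimum and all 10 with a minimum of 100 are Gypsy1 internal copies tested in every fit. Internal over LTR gave 8 higher and 3 lower of 13 with 10 RPM added, against 24 and 17 of 52 elements. There GTWIN (0.13), Gypsy2 (0.36) and Gypsy3 (0.16) turned positive, and with 0.1 RPM added Gypsy2_DM turned to -0.65. The block gave 3 higher and 5 lower, against 13 and 20 of 52 elements. Without single libraries the median change of the 13 ran from -0.09 to 0.07. The crosslinking difference gave 7 higher with library size only, which moved the median of all items from 0.03 to 0.56, 2 higher and 1 lower (Gypsy1) with a minimum of 100, 3 higher and 1 lower (Gypsy1) with no minimum, and 2 to 4 higher without single libraries. The summed ratio without Gypsy1 was 3.17 without rRNA and 3.64 over all reads. Replicate numbers were not shown to pair the libraries (correlation of deviations 0.0405), and apart from the changes given the cause was not tested.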

Other observations

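The members other than Gypsy1, Gypsy and Gypsy6 summed to 314 and 325 RPM in the crosslinked inputs, 818 and 920 RPM in the crosslinked IPs, 253 RPM in the non-crosslinked input and 279 RPM in the non-crosslinked IP. The ratio was 2.72 with crosslinking and 1.10 without, both of RPM without TMM scaling. This set was chosen after the values were seen and has no test.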
